A study of Mus musculus with 2 samples.

Results

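These 9 genes, of the 32285 genes in the deposited matrices, make and regulate fatty acids and sterols: the regulators *Srebf1* and *Srebf2*, the fatty acid synthesis enzymes *Acly*, *Acaca* and *Fasn*, the desaturases *Scd1* and *Scd2*, and the sterol synthesis enzymes *Hmgcs1* and *Sqle*. They were chosen by name, as 9 rows found by symbol in the matrices of 8 mice. *Arpc4* encodes a subunit of the Arp2/3 complex, which nucleates branched actin filaments. The control group held 4 Cre-negative *Arpc4* fl/fl mice, and the Arpc4ΔCx3cr1 group held 4 *Tg(Cx3cr1-Cre) Arpc4* fl/fl littermates, all 12 weeks old, so that both groups carried the floxed allele and the transgene alone was not among the controls. The *Cx3cr1* promoter drives Cre in microglia and also in other cells that use it, such as brain macrophages. CD45+ brain cells of each mouse were sorted, tagged with an oligonucleotide and pooled into 1 droplet library. The study's methods give 1 Arpc4ΔCx3cr1 mouse as female and the other mice as male, without the labels saying which was female. The study left the female out of its downstream analysis, while all 8 mice are used here unless stated.

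Cells build fatty acids in the cytosol from citrate: ATP citrate lyase (*Acly*) releases acetyl-CoA, acetyl-CoA carboxylase 1 (*Acaca*) turns it into malonyl-CoA, fatty acid synthase (*Fasn*) makes palmitate, and the stearoyl-CoA desaturases (*Scd1*, *Scd2*) add a double bond. Sterols are built from the same acetyl-CoA through the mevalonate pathway, in which *Hmgcs1* acts early and squalene epoxidase (*Sqle*) acts late. When sterols in the endoplasmic reticulum fall, the membrane-bound factors SREBP1 (*Srebf1*) and SREBP2 (*Srebf2*) are cut and enter the nucleus, SREBP1c serving fatty acid genes above all and SREBP2 sterol genes. Microglia are the resident macrophages of the brain and take up and degrade lipid-rich debris.

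The files held 19864 cells, of which 19863 were kept, with 1257 to 2831 cells and 5251527 to 12878691 unique molecular identifiers (UMIs, counted molecules) per mouse, and no cell barcode was shared between mice. Clusters were named from marker genes as microglia-like (17038 cells), CNS-associated macrophage-like (CAM-like, 412), monocyte-like (346), T cell-like (308), proliferating (92), B cell-like (81) and granulocyte-like (80), and 1506 cells with low UMI counts stayed unnamed. The summed level of the 12 microglia markers was 24710 to 25070 UMIs per 1000000 UMIs (counts per 1000000, CPM) in control and 9973 to 14030 CPM in Arpc4ΔCx3cr1 microglia-like cells. The markers were thus lower with the deletion. No marker was at 0, but none was at 0 in CAM-like, monocyte-like or T cell-like cells either, so that cannot bear out the label. In CAM-like cells the sum was 7337 to 9433 CPM in control and 4120 to 7216 CPM in Arpc4ΔCx3cr1 mice, and in T cell-like cells 8034 to 9288 and 3358 to 5531 CPM. *Arpc4* itself stood at 218 to 232 CPM in all cells of the control mice and at 134 to 159 CPM in those of the Arpc4ΔCx3cr1 mice. The median mitochondrial share per cell was 0.520% to 0.583% in control and 0.951% to 1.14% in Arpc4ΔCx3cr1 mice, and its part in the results was not tested. Mouse KO-1 stood apart, with *Xist* at 1276 CPM against 4.30 to 13.6 CPM in the other mice. The Y-linked *Ddx3y* was at 3.91 CPM in KO-1 against 65.8 to 82.5 CPM in the others, so KO-1 had the transcripts of a female. KO-1 also had most of a microglia cluster to itself, and the 9 genes and the gene lists are also given without it. Of the other lipid genes named below as called in microglia-like cells, *Hsd17b7* and *Nr1h3* lost the call without KO-1.

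In microglia-like cells, 4 of the 9 genes rose with the deletion, by 1.47-fold to 6.99-fold, and none fell past the threshold. These were *Acaca*, *Sqle*, *Srebf2* and *Hmgcs1*. *Srebf1*, *Acly*, *Fasn* and *Scd2* did not pass the test, and *Scd1* was too low to be tested. UMIs were summed per mouse over 996 to 2382 microglia-like cells (4196598 to 11696847 UMIs a mouse) and compared with edgeR's quasi-likelihood test over all 12729 genes that passed the filter on low counts, and a gene was called at a Benjamini-Hochberg adjusted p below 0.05. The background was high. Of all genes tested, 46.0% were called, 22.8% higher and 23.2% lower (2906 and 2949 genes, or 2241 and 4264 with library totals in place of TMM, which moved the median of all genes to -0.11), against 4 higher and 0 lower among the 8 of the 9 genes that could be tested. The median log2 difference over those 8 was 0.36, beside -0.01 over all genes tested. The same 4 genes also had no overlap between the groups (*Acaca*, *Sqle*, *Srebf2*, *Hmgcs1*), where 21.9% of all genes lay higher and 22.4% lower without overlap.

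**Figure D1:**
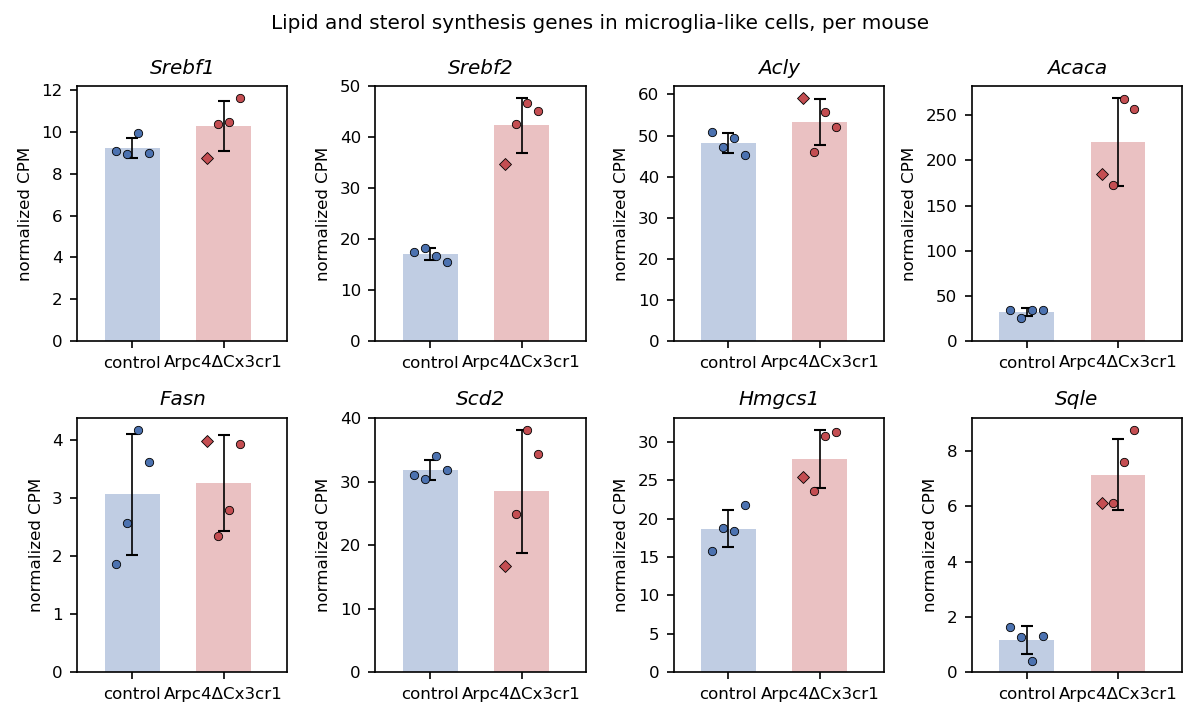
Normalized CPM of 8 genes in microglia-like cells, 1 point per mouse, with bars for the mean of 4 mice and error bars for the SD; the diamond marks mouse KO-1 and each panel has its own axis from 0. *Srebf2*, *Acaca*, *Hmgcs1* and *Sqle* of the Arpc4ΔCx3cr1 mice lay above every control mouse, while the groups overlapped for *Srebf1*, *Acly*, *Fasn* and *Scd2*.

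The promoters of 3 of the 4 genes that rose are shown because these genes moved together. RefSeq promoters of GRCm38.p6 (250 bases before to 50 after the start of a transcript) were found for 6 of the 9 genes and not for *Scd1*, *Scd2* and *Sqle*. Capitals mark, on either strand, the sterol regulatory element letters TCACNCCAC, their shorter form TCACNCCA (which every TCACNCCAC holds, and which was added after the sequences were read), the CCAAT box bound by NF-Y and the GC box GGGCGG bound by Sp1. The lines give *Hmgcs1* at chr13:119690101-119690400 (plus strand), *Srebf2* at chr15:82147019-82147318 (plus strand) and *Acaca* at chr11:84195188-84195487 (plus strand), the last a start within the gene and not at its first exon.
Hmgcs1: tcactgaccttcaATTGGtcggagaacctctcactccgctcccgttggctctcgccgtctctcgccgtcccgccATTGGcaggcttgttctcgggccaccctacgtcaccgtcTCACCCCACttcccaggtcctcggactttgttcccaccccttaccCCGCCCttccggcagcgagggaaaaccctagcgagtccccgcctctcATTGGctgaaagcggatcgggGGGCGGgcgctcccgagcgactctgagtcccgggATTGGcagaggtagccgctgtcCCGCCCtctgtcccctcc
Srebf2: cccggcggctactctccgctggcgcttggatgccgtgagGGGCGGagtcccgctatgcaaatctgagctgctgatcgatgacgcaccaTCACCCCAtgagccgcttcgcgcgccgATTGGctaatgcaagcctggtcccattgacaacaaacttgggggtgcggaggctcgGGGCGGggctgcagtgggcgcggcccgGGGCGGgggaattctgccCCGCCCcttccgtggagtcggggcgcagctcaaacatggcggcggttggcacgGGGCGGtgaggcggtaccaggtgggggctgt
Acaca: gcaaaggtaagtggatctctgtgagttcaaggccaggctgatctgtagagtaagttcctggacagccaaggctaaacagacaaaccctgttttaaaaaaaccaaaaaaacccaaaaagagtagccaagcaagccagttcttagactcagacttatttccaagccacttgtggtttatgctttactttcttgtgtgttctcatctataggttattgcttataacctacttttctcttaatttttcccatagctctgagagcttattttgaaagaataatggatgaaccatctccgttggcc

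The *Hmgcs1* window held 1 TCACNCCAC, 4 CCAAT and 3 GGGCGG, and the *Srebf2* window held no TCACNCCAC, 1 TCACNCCA, 1 CCAAT and 5 GGGCGG. The *Acaca* window held none of them. Of all 32851 promoters in the table, 1.24% held TCACNCCAC, 4.36% TCACNCCA, 37.4% CCAAT and 35.7% GGGCGG. Among the 6 genes of the 9 with a promoter, 1 held TCACNCCAC, 2 TCACNCCA, 5 CCAAT and 4 GGGCGG, and among 15 of 19 other sterol synthesis enzymes with a promoter these numbers were 0, 1, 14 and 13. A gene was counted if any of its promoters held the letters (8 promoters for the 6 genes, 18 for the 15). The shares of all promoters count single promoters, so the 2 are not alike. These are matches of letters, and no binding was measured.

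Of the 2 regulators, *Srebf2* rose and *Srebf1* did not pass the test. Values are normalized CPM, that is UMIs relative to library totals scaled by edgeR's TMM factors and expressed as CPM, in the order control 1 to 4 and KO-1 to KO-4. *Srebf2* (ENSMUSG00000022463, chromosome 15, 82147181 to 82205379, plus strand, mm10) stood at 17.5, 18.3, 16.6 and 15.5 in control mice and at 34.7, 42.6, 46.7 and 45.1 in Arpc4ΔCx3cr1 mice. Every Arpc4ΔCx3cr1 mouse lay above every control mouse, and KO-1 was the lowest of its group. The mean went from 16.97 ± 1.17 to 42.3 ± 5.36 (SD, n = 4 each), a log2 difference of 1.32 ± 0.10 (SE, edgeR adjusted p = 2.74e-06), and without KO-1 it was 1.41 (edgeR adjusted p = 8.87e-09). *Srebf1* (ENSMUSG00000020538, chromosome 11, 60199089 to 60222581, minus strand) stood at 9.09, 8.93, 9.97 and 8.97 in control mice and at 8.73, 10.4, 10.5 and 11.6 in Arpc4ΔCx3cr1 mice. The groups overlapped, with a log2 difference of 0.16 and a 95% interval from -0.10 to 0.41 (edgeR adjusted p = 0.297), and 0.23 without KO-1 (edgeR adjusted p = 0.119).

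Among the fatty acid synthesis enzymes, *Acaca* rose and *Acly* and *Fasn* did not pass the test. *Acaca* (ENSMUSG00000020532, chromosome 11, 84129672 to 84401651, plus strand), which encodes the enzyme that makes malonyl-CoA, stood at 34.01, 25.01, 33.75 and 34.07 in control mice and at 185.3, 172.4, 267.5 and 256.5 in Arpc4ΔCx3cr1 mice. The lowest Arpc4ΔCx3cr1 mouse, KO-2, was far above the highest control mouse, and KO-1 and KO-2 lay below KO-3 and KO-4. The mean went from 31.7 ± 4.47 to 220.4 ± 48.5 (SD, n = 4 each), a 6.99-fold rise with a log2 difference of 2.80 ± 0.16 (SE, edgeR adjusted p = 4.55e-07), and 2.89 without KO-1 (edgeR adjusted p = 3.50e-09).

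*Acly* (ENSMUSG00000020917, chromosome 11, 100476353 to 100528000, minus strand) stood at 50.8, 47.2, 49.5 and 45.3 in control mice and at 59.1, 46.0, 55.8 and 52.1 in Arpc4ΔCx3cr1 mice. The groups overlapped through KO-2, and the log2 difference of 0.15 had a 95% interval from -0.03 to 0.33 (edgeR adjusted p = 0.153). It was 0.10 without KO-1 (edgeR adjusted p = 0.276), and without KO-2 it was 0.21 and passed (edgeR adjusted p = 0.0316). *Fasn* (ENSMUSG00000025153, chromosome 11, 120805846 to 120824547, minus strand) rested on 8 to 44 UMIs a mouse, at 1.86, 2.58, 4.18 and 3.63 in control mice and at 3.98, 2.34, 2.80 and 3.93 in Arpc4ΔCx3cr1 mice. The groups overlapped fully for this enzyme, and the interval of its log2 difference, -0.55 to 0.62 around 0.04 (edgeR adjusted p = 0.919), leaves room for a change of moderate size either way, and without KO-1 the value was -0.07 (edgeR adjusted p = 0.852). The rise of *Acaca* thus had no matching call in the enzymes before and after it.

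*Acaca* spans 272 kb, the widest of the 9 genes, the others spanning 13.2 to 58.2 kb. The counting program named in the file headers counts reads in introns by default, so reads in introns can add to its count, and *Gm37391* overlaps it on the same strand and *Gm11437* on the other. Genes spanning 200 kb or more held 9.42% to 9.57% of microglia-like UMIs in control mice and 8.09% to 8.94% in Arpc4ΔCx3cr1 mice. Of 535 such genes tested, 209 were higher and 125 lower with the deletion, and their median log2 difference was 0.09. Of all 12720 genes tested with a known span, 2902 were higher and 2947 lower, with a median of -0.01. Over all genes tested these shares were 22.8% and 23.2%, so rises were more frequent among the long genes. The part of gene length in the *Acaca* difference was not tested.

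Neither desaturase was called. *Scd2* (ENSMUSG00000025203, chromosome 19, 44293674 to 44306864, plus strand), the desaturase gene known as the main form in mouse brain, stood at 31.0, 30.5, 33.97 and 31.8 in control mice and at 16.7, 24.8, 38.2 and 34.3 in Arpc4ΔCx3cr1 mice. The control mice were close together, while KO-1 and KO-2 lay below all of them and KO-3 and KO-4 above all of them. The log2 difference was -0.16 with a 95% interval from -0.61 to 0.30 (edgeR adjusted p = 0.562), and 0.03 without KO-1, with an interval from -0.22 to 0.29. *Scd1* (ENSMUSG00000037071, chromosome 19, 44394455 to 44407879, minus strand) had 0, 1, 0 and 0 UMIs in the microglia-like cells of the control mice and 1, 1, 1 and 3 in those of the Arpc4ΔCx3cr1 mice. All of these are at or under the 3 counts that a count of 0 allows, so no difference was detectable at this depth.

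Both sterol synthesis enzymes rose. *Hmgcs1* (ENSMUSG00000093930, chromosome 13, 119690379 to 119708260, plus strand), the cytosolic synthase that makes HMG-CoA, stood at 15.8, 18.8, 18.3 and 21.8 in control mice and at 25.4, 23.6, 30.7 and 31.3 in Arpc4ΔCx3cr1 mice. The groups did not overlap, though the highest control mouse and KO-2 lay close together. The mean went from 18.7 ± 2.43 to 27.7 ± 3.81 (SD, n = 4 each), a log2 difference of 0.56 ± 0.12 (SE, edgeR adjusted p = 0.00288), and 0.59 without KO-1. *Sqle* (ENSMUSG00000022351, chromosome 15, 59315077 to 59331192, plus strand), the first oxygen-using enzyme on the way from squalene to sterols, had 7, 13, 4 and 13 UMIs in control mice and 63, 60, 84 and 98 in Arpc4ΔCx3cr1 mice. Scaled to depth this was 1.63, 1.29, 0.429 and 1.31 normalized CPM against 6.11, 6.11, 7.58 and 8.76. The difference was 6.39-fold, with a log2 value of 2.68 ± 0.28 (SE, edgeR adjusted p = 2.46e-05), and 2.75 without KO-1, but its control level rested on few molecules.

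Of 19 other sterol synthesis enzymes, all tested, 11 were higher, 1 was lower and 7 did not pass, beside 22.8% higher and 23.2% lower among all genes tested, and their median log2 difference was 0.67. Without KO-1, 10 were higher and 1 lower, with a median of 0.62. In the mevalonate part, *Pmvk*, a mevalonate pathway kinase, rose by 0.87 ± 0.19 and *Idi1*, the isopentenyl diphosphate isomerase, by 1.55 ± 0.20 on the log2 scale. *Fdps* and *Fdft1*, which make farnesyl diphosphate and squalene, rose by 0.83 ± 0.15 and 0.72 ± 0.13.

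In the steps after squalene, *Cyp51*, the lanosterol demethylase, went from 9.98 to 11.9 normalized CPM in control to 20.7 to 34.4 in Arpc4ΔCx3cr1 mice (log2 difference 1.39 ± 0.16 SE). *Msmo1*, *Hsd17b7*, *Sc5d* and *Dhcr7*, which act between lanosterol and cholesterol, rose by 0.78 ± 0.15, 0.67 ± 0.20, 0.72 ± 0.16 and 0.74 ± 0.12 on the log2 scale, of which the *Hsd17b7* call was lost in several alternatives, among them without KO-1 (0.57, edgeR adjusted p = 0.0506). The exception was *Ebp*, a sterol isomerase, which fell by 0.19 on the log2 scale, from 79.9 to 83.3 normalized CPM to 66.1 to 75.0, a call lost when cells were thinned to 2000 UMIs (edgeR adjusted p = 0.0731). The called enzymes named here had edgeR adjusted p values between 4.25e-05 and 0.0174. The 7 that did not pass were *Acat2*, *Mvk*, *Mvd*, *Ggps1*, *Lss*, *Tm7sf2* and *Nsdhl*, with log2 differences from -0.23 to 0.47.

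Of 12 genes listed around SREBP and the sterol-sensing receptors LXR, 2 were higher, 6 lower and 4 not called, and without KO-1 these were 1 and 6 (all genes tested: 22.8% higher, 23.2% lower, 46.0% called). The list held the LXR genes themselves, and *Mlx*, *Mlxipl* and *Thrsp*, so its counts are not of controllers of SREBP or LXR alone. *Insig1*, which holds SREBP in the endoplasmic reticulum and is itself an SREBP target, went from 4.94 to 7.22 normalized CPM in control to 12.2 to 15.2 in Arpc4ΔCx3cr1 mice (log2 difference 1.17 ± 0.14 SE, edgeR adjusted p = 5.10e-05). *Nr1h3*, encoding LXR alpha, was 0.79 ± 0.28 higher at edgeR adjusted p = 0.0372, and this call was lost in 12 of 23 alternatives. *Rxra*, encoding the LXR partner, fell by 0.81 on the log2 scale. *Thrsp*, whose product is associated with lipogenesis, fell from 81.1 to 95.5 normalized CPM to 4.95 to 28.2 (log2 difference -2.40 ± 0.33 SE, edgeR adjusted p = 1.64e-04), and KO-1 was the lowest mouse.

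Of 12 genes of sterol uptake, export and esterification, 5 were higher, 5 lower and 1 not called, 1 being too low to test, and without KO-1 also 5 and 5 (all genes tested: 22.8% higher, 23.2% lower, 46.0% called). *Stard4*, a sterol carrier, rose by 2.00 ± 0.23 on the log2 scale, while *Lrp1*, a large lipoprotein receptor, fell by 0.79 and *Mylip*, a ubiquitin ligase gene induced by LXR, fell by 0.63.

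In the other lipid lists the called genes lay on both sides, with shares read against 22.8% higher and 23.2% lower among all genes tested. Of 17 other genes of fatty acid synthesis and elongation, 13 were tested, 4 were higher and 3 lower (4 and 2 without KO-1), led by *Hacd2* (log2 difference 1.23 ± 0.11 SE) and *Hsd17b12* (0.46 ± 0.05), both of the elongation cycle, and by *Fads1*, a fatty acid desaturase, and *Mcat*, of mitochondrial fatty acid synthesis, which fell by 0.79 and 0.36 on the log2 scale. Of 14 genes of triglyceride synthesis and lipid droplets, 5 were higher and 4 lower (5 and 5 without KO-1). *Dgat2*, which makes triglycerides, rose by 2.61 ± 0.32 and *Plin2*, a lipid droplet coat protein, by 1.17 ± 0.15, while *Lpin1* and *Gpam*, both of glycerolipid synthesis, fell by 0.91 and 0.76. Of 13 genes of fatty acid oxidation, 12 were tested, 2 were higher and 4 lower (2 and 5 without KO-1). *Ppard* (0.67 ± 0.09) and *Acadl* (0.41 ± 0.08) were higher, while *Acads* and *Hadh*, both enzymes of short-chain oxidation, fell by 1.14 and 0.65 on the log2 scale. The median log2 differences of these lists were 0.04, 0.08 and -0.22, against 0.67 for the sterol enzymes and -0.01 for all genes tested.

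**Figure D2:**
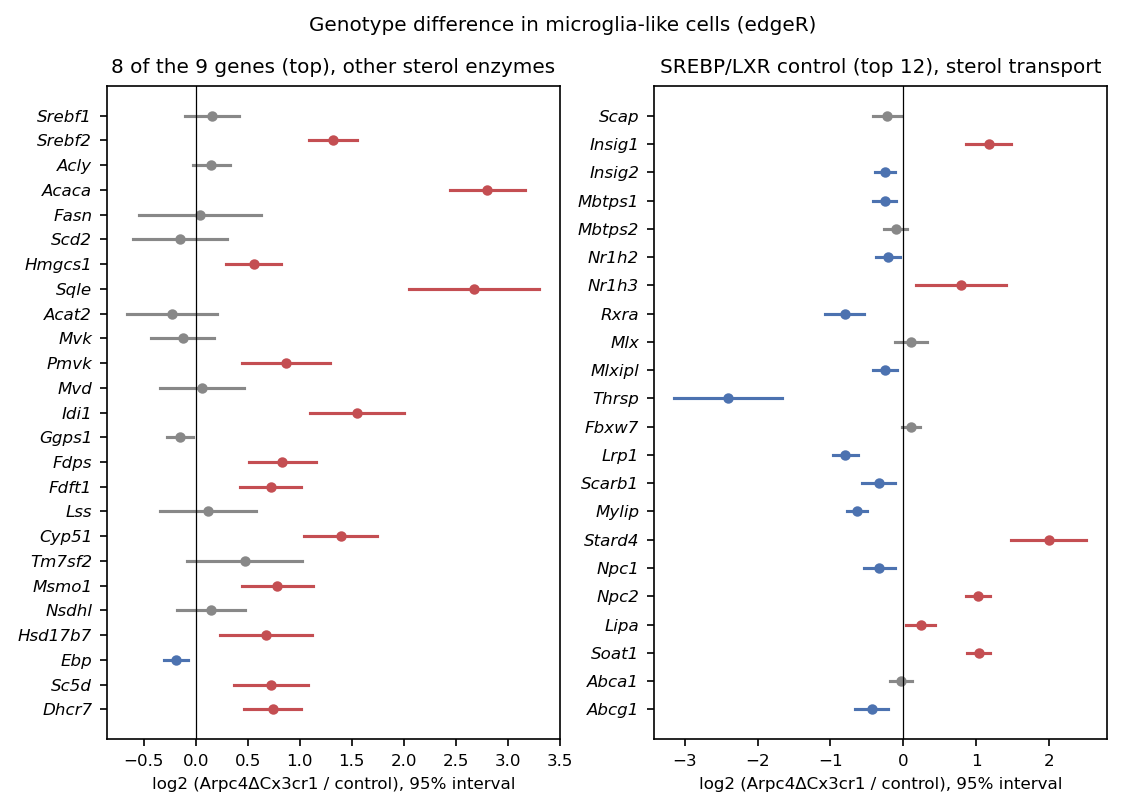
Log2 difference between Arpc4ΔCx3cr1 and control microglia-like cells with its 95% interval (x axis), 1 row per gene, red for higher and blue for lower at an edgeR adjusted p below 0.05 and grey for not called. Of the other sterol enzymes plotted at the left, *Ebp* at -0.19 is the 1 in blue and *Idi1* at 1.55 lies farthest from 0, and *Thrsp* at -2.40 and *Stard4* at 2.00 lie farthest from 0 at the right.

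How many cells carried a transcript was counted after each microglia-like cell was thinned to 2000 UMIs, which left out 288 shallower control and 328 Arpc4ΔCx3cr1 cells. *Acaca* was found in 5.48%, 3.99%, 5.20% and 5.81% of cells of the control mice and in 24.6%, 22.1%, 33.7% and 29.4% of cells of the Arpc4ΔCx3cr1 mice. Its mean share differed by 22.3 percentage points (exact permutation test over 8 mice, two-sided, p = 0.0286, the smallest that 70 regroupings allow, and 0.0857 adjusted over the 9 genes). *Srebf2* went from 2.98% to 3.42% of cells to 5.66% to 8.38% and *Sqle* from 0.0472% to 0.310% to 0.895% to 1.46%, each at the same smallest p, and none of the 9 passed after adjustment. With only these genes and *Acaca* at the smallest p, the adjusted p of this permutation test could not fall below 0.0857 for them. The lack of a call is thus no sign that their shares were alike. Without KO-1 the differences were 23.3 points for *Acaca*, 4.50 for *Srebf2* and 1.16 for *Sqle*. Without thinning the mean *Acaca* shares were 9.48% and 45.5%. In T cell-like cells thinned alike, *Acaca* was found in 0% to 10.8% of 20 to 45 cells a control mouse and in 7.41% to 14.6% of 27 to 48 cells an Arpc4ΔCx3cr1 mouse, so that the control microglia share did not stand out from that in T cell-like cells, while every Arpc4ΔCx3cr1 microglia share lay above it.

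Microglia-like cells fell into 12 clusters, made without the lipid genes, and most were nearly all of 1 genotype. Cluster levels are given as a description, in CPM by library total. *Acaca* stood at 291.5 ± 29.6 (SD, n = 4 mice) in the Arpc4ΔCx3cr1 cells of cluster 0, the largest with 2997 cells of which 2903 came from these mice, and at 305 ± 41.2 in those of cluster 8, led by the chemokine genes *Ccl4* and *Ccl3*. It stood at 217 ± 45.2 in those of cluster 9, led by the interferon-induced *Cxcl10* and *Ifit3*. In the control clusters 1, 2, 3 and 7 the control mice had 35.8 ± 5.22, 25.1 ± 7.24, 14.6 ± 4.09 and 4.82 ± 1.94. Where a cluster held cells of both genotypes, the levels lay apart in some and not in others. In cluster 8 the 4 control mice (13 to 33 cells each) had 33.2 to 113 CPM of *Acaca* against 260 to 349 in the Arpc4ΔCx3cr1 mice, and in cluster 0 they had 148 to 222 against 257 to 326. In cluster 1 the 2 Arpc4ΔCx3cr1 mice with at least 10 cells had 35.8 ± 3.48 CPM, the level of the control mice there, from 9 UMIs.

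The lipid genes were low in cluster 5, whose class depended on the clustering. At the lower resolution of 0.4, 1335 of its 1422 cells fell in a cluster classed as CAM-like and 87 in microglia-like ones, and the *Acaca* difference in microglia-like cells was then 2.93, as it was without cluster 5. The cluster was led by *Ms4a7*, a gene of brain macrophages, and hemoglobin genes, and 1383 of its 1422 cells came from Arpc4ΔCx3cr1 mice. In all microglia-like cells the 5 hemoglobin genes summed to 3.59 to 5.77 CPM in control and 4.19 to 1490 CPM (mean 376) in Arpc4ΔCx3cr1 mice, nearly all of it from 1 mouse. The 10 CAM markers summed to 44.3 to 74.6 and 206 to 373 CPM, and the part of such RNA in the results was not tested. *Acaca* in cluster 5 was 36.7, 39.0, 17.9 and 39.9 CPM in KO-1 to KO-4, against 191, 187, 272 and 273 CPM when the remaining microglia-like cells of each mouse were summed. *Scd2* was 5.24, 3.32, 6.39 and 6.41 CPM against 17.1, 27.2, 38.5 and 36.4. *Srebf2*, *Acly*, *Hmgcs1* and *Sqle* were also lower there in 4 of 4 mice, with means of 26.8, 28.1, 16.5 and 1.44 CPM against 42.3, 53.7, 27.9 and 7.47, the last on 1 or 2 UMIs a mouse. In control microglia-like cells the means were 32.8 CPM for *Acaca*, 32.9 for *Scd2*, 17.6 for *Srebf2*, 49.9 for *Acly*, 19.4 for *Hmgcs1* and 1.21 for *Sqle*. *Acaca* in cluster 5 was thus near its control level. *Srebf2*, at 22.8 to 33.2 CPM in cluster 5 of the Arpc4ΔCx3cr1 mice, stayed above the 16.3 to 19.0 CPM of control microglia-like cells. In clusters 10 and 11 *Acaca* was also below its level in clusters 0 and 8, at 40.7 ± 5.02 (n = 4) and 45.1 ± 7.61 (n = 3) CPM in Arpc4ΔCx3cr1 mice, so its level differed between cells of the same genotype. Control cells there gave 39.6 CPM in cluster 10 (1 mouse) and 5.64 ± 9.77 CPM in cluster 11 (n = 3), from 2 UMIs each. The share of UMIs on genes of 200 kb or more ran from 1.84% in cluster 10 to 12.1% in cluster 1 and was 10.5% in cluster 0, 8.35% in cluster 8 and 7.08% in cluster 5, and its part in these levels was not tested. KO-1 gave 96.6% of cluster 4, which had 194 to 198 CPM of *Acaca* in the mice with at least 10 cells.

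**Figure D3:**
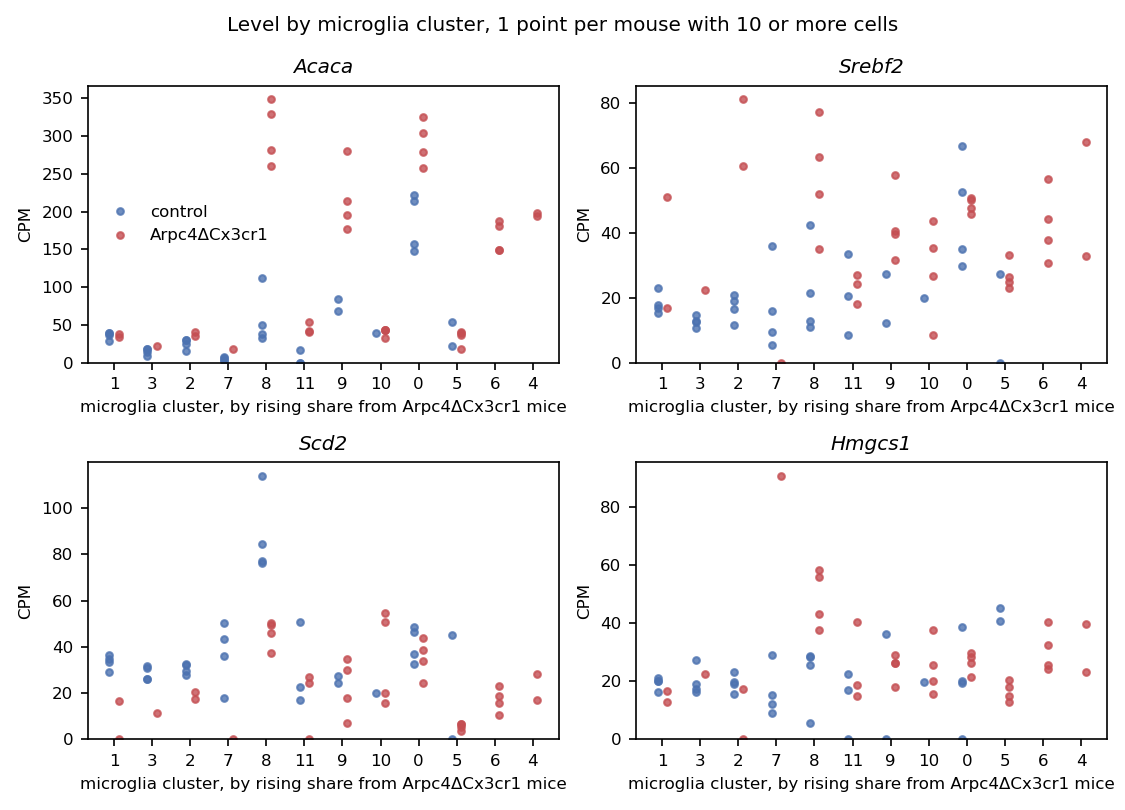
CPM by library total (y axis) of *Acaca*, *Srebf2*, *Scd2* and *Hmgcs1* in each of 12 microglia clusters (x axis, ordered by the share of Arpc4ΔCx3cr1 cells with mice weighted equally), 1 point per mouse with at least 10 cells of the cluster. *Acaca* of the Arpc4ΔCx3cr1 mice lies at 257 to 349 in clusters 0 and 8 and under 60 in clusters 5, 10 and 11; points from few cells scatter widely for the other 3 genes.

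In the other classes the 9 genes rested on few molecules, and most did not pass the filter on low counts. Of all genes tested, 1.20% were called in CAM-like, 7.10% in monocyte-like and 3.91% in T cell-like cells. In CAM-like cells (22 to 112 cells a mouse) only *Srebf2* could be tested. It stood at 40.8, 34.4, 40.1 and 40.6 CPM in control mice and at 59.8, 64.1, 58.8 and 74.0 in Arpc4ΔCx3cr1 mice. The groups did not overlap, yet each value rested on 6 to 18 UMIs and the log2 difference of 0.73 ± 0.31 (SE) did not pass (edgeR adjusted p = 0.358). In monocyte-like cells *Srebf2* was at 80.3 ± 18.8 in control and 71.2 ± 20.3 CPM in Arpc4ΔCx3cr1 mice (edgeR adjusted p = 0.560, log2 interval -0.98 to 0.26), and *Acly* was not called either (edgeR adjusted p = 0.833).

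In T cell-like cells *Acaca* rose and *Acly* did not pass (edgeR adjusted p = 0.994). *Acaca* stood at 68.3, 43.1, 15.7 and 26.2 CPM in control mice and at 118, 60.4, 88.1 and 107 CPM in Arpc4ΔCx3cr1 mice, from 4 to 29 UMIs a mouse. The groups overlapped through control 1, with a log2 difference of 1.51 ± 0.36 (SE, edgeR adjusted p = 0.0111), 1.41 without KO-1 (edgeR adjusted p = 0.0293) and 1.19 without control 3, where the call was lost. These sums also held microglial transcripts. The 12 microglia markers, none at 0, summed to 8034 to 9288 CPM in control and 3358 to 5531 CPM in Arpc4ΔCx3cr1 T cell-like cells, beside 3152 to 3744 and 2799 to 4765 CPM for the 9 T cell markers. In barcodes of at most 100 UMIs, taken as empty droplets common to all mice, *Acaca* was at 58.0 CPM, *Srebf2* at 27.5 CPM and *Sqle* at 3.07 CPM. The part of this RNA in the T cell result was not tested.

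The difference between classes was tested as an interaction. The genotype difference of *Acaca* was 1.28 ± 0.50 (SE) log2 units smaller in T cell-like than in microglia-like cells at edgeR adjusted p = 0.250, and in a fit blocked on the mouse (each animal gave a sum of either class) it was 1.33 smaller at edgeR adjusted p = 0.0125. Against CAM-like cells it was 1.64 ± 0.52 smaller at edgeR adjusted p = 0.0741, and 1.63 smaller at edgeR adjusted p = 0.00231 when blocked on the mouse. *Acaca* in CAM-like cells was 31.7, 34.4, 24.5 and 22.1 CPM in control and 46.5, 128, 80.9 and 18.5 CPM in Arpc4ΔCx3cr1 mice, from 2 to 12 UMIs a mouse. No other gene of the 9 passed in either form of these tests. In the fits without the block, where *Acaca* did not pass, 2.73% and 5.27% of all genes were called. The blocked fits, where it passed, called more genes, 448 of 11345 tested against T cell-like and 736 of 11180 against CAM-like cells.

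**Figure D4:**
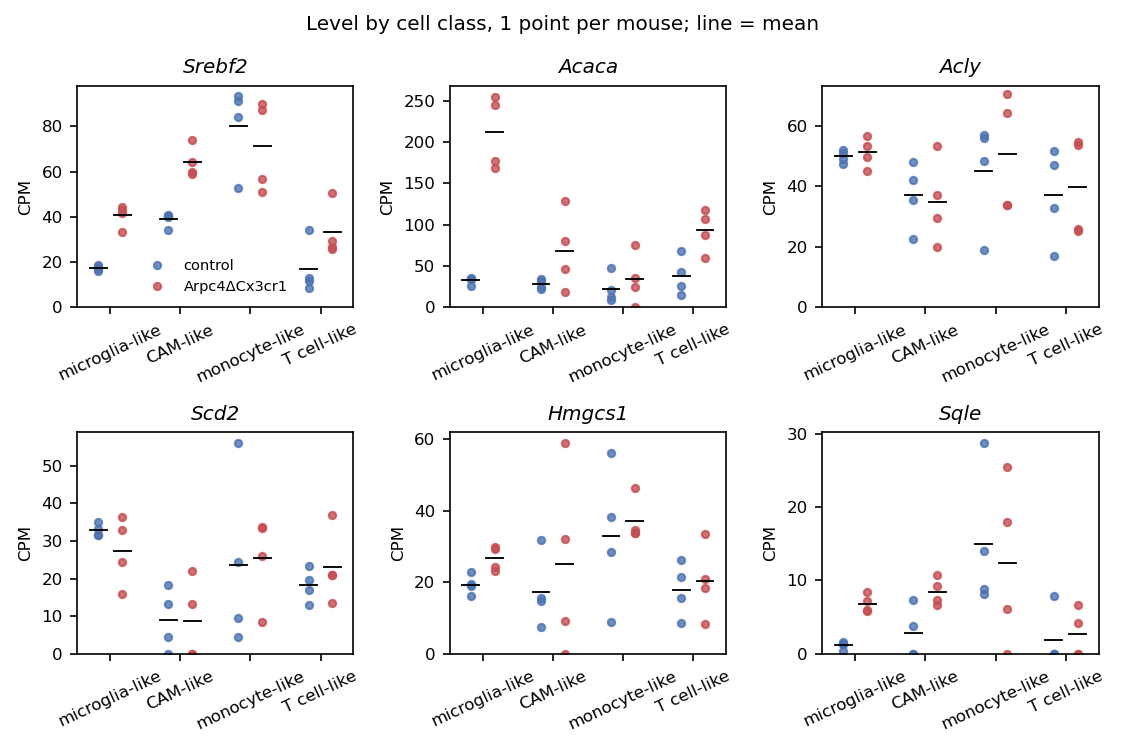
CPM by library total (y axis) of 6 genes in microglia-like, CAM-like, monocyte-like and T cell-like cells (x axis), 1 point per mouse, with a line at the mean of 4 mice. The *Acaca* difference is widest in microglia-like cells, and the points of the other classes, from few UMIs, scatter and overlap more.

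In the empty droplets *Acly* was at 47.2, *Scd2* at 30.7, *Hmgcs1* at 21.3, *Srebf1* at 8.76 and *Fasn* at 3.80 CPM, beside the values given above. The part of this RNA, and of microglial transcripts in T cell-like cells, in the class levels below was not tested. Across the 4 classes in which every mouse had at least 10 cells, control means ran as follows, in CPM. *Acaca* was at 32.8 ± 4.60 in microglia-like, 28.2 ± 5.81 in CAM-like, 22.5 ± 17.7 in monocyte-like and 38.3 ± 23.0 in T cell-like cells of control mice, all within their spread. *Srebf2* was highest of the 4 in monocyte-like cells (80.3 ± 18.8), then CAM-like (38.9 ± 3.07), microglia-like (17.6 ± 1.14) and T cell-like cells (16.9 ± 11.7), the last pair within their spread. Among these classes *Sqle* was also highest in monocyte-like cells (14.9 ± 9.57), from 12 UMIs in all, against 1.21 ± 0.530 in microglia-like, 2.80 ± 3.54 in CAM-like and 1.96 ± 3.92 in T cell-like cells, which were within their spread. *Scd2* was at 32.9 ± 1.64 in microglia-like, 23.6 ± 23.2 in monocyte-like, 18.3 ± 4.44 in T cell-like and 9.08 ± 8.35 in CAM-like cells, where the microglia-like level stood apart from the CAM-like and T cell-like levels beyond their spread and the other neighbours did not. In the 2 control mice per class with at least 10 such cells, *Scd2* was higher still in value, at 117 ± 101 in B cell-like and 45.7 ± 10.8 in proliferating cells (9 and 16 UMIs), and *Sqle* was at 26.9 ± 38.0 and 11.2 ± 6.83 (2 and 4 UMIs). *Acly* (49.9 ± 2.05 in microglia-like, 37.1 ± 10.8 in CAM-like, 45.1 ± 17.7 in monocyte-like and 37.1 ± 15.6 CPM in T cell-like cells) did not separate the classes. *Hmgcs1* was at 19.4 ± 2.72, 17.4 ± 10.2, 32.9 ± 19.7 and 17.98 ± 7.62 CPM in microglia-like, CAM-like, monocyte-like and T cell-like cells and did not separate them either. *Srebf1* was at 9.57 ± 0.491, 12.8 ± 3.21, 4.96 ± 3.84 and 21.1 ± 6.20 CPM in the same order, highest of the 4 in T cell-like cells from 15 UMIs, and there 8.35 ± 3.83 CPM in Arpc4ΔCx3cr1 mice. *Fasn* was at 3.18 ± 1.09 CPM in microglia-like and 12.8 ± 11.3 CPM in T cell-like cells, the latter from 8 UMIs. *Scd1* had no UMI in CAM-like or T cell-like cells, 4 in monocyte-like cells of the Arpc4ΔCx3cr1 mice and 3 in B cell-like cells of the 2 control mice with at least 10 such cells.

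Over the 42 sums of 1 mouse and 1 named class with at least 10 cells, which share mice, droplet library and depth within a class, the genes whose log2 CPM was most like that of each gene were listed as a description. The sums held both genotypes and all named classes, so r can follow either difference. For *Acaca* these were *Cst7* (Pearson r = 0.84), a cystatin gene known from reactive microglia, *Itgb8* (0.83) and *Csf1* (0.82). *Cst7* also led microglia clusters 6 and 10. *Acaca* of the Arpc4ΔCx3cr1 mice was 167 ± 20.5 and 40.7 ± 5.02 CPM there (SD, n = 4 each), against 291.5 ± 29.6 in cluster 0. A link of *Acaca* and *Cst7* within microglia was not tested. For *Sqle* the closest was *Cyp51*, of the same pathway (0.63), then *E2f2* (0.59) and *Pank1* (0.58), and for *Hmgcs1* they were *Coa5* (0.67), *Grk3* (0.58) and *Ddx52* (0.57). *Srebf2* was most like *Atox1* (0.74), *Atp6v0e* (0.74) and *Gm21188* (0.74), and *Srebf1* most like *Ubr4* (0.71), *2310033P09Rik* (0.71) and *AY036118* (0.68). *Acly* was most like *Acsl4* (0.63), *Unc50* (0.62) and *Api5* (0.62), *Fasn* most like *Mfsd10* (0.62), *Nup50* (0.61) and *Agpat5* (0.61), and *Scd2* most like *Desi1* (0.73), *Mak16* (0.71) and *Gnas* (0.70). *Scd1* was most like *Rag1* (0.90), *Agbl1* (0.88) and *Klhl14* (0.88), on a handful of UMIs.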

How the data were processed

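The authors aligned droplet reads to mm10 with Cell Ranger (7.1.0 per the file headers, 6.1.2 per the submitters' processing notes) and deposited UMI counts per gene and cell for each tagged mouse, and the pooled unfiltered counts. The genes and the lists were chosen with earlier results of these data known. Barcodes were kept from 200 detected genes upward if mitochondrial UMIs made up no more than 20%. Clustering (Seurat 5.3.0, 20 components, resolution 0.8) left out lipid, sex-linked and *Arpc4* genes, and naming limits were set after the clusters were seen. The doublet caller of scanpy 1.11.5 marked only 44 of 19864 cells, so it was not relied on and doublets were not removed. Whether it missed doublets was not tested. Of the microglia-like clusters, 3 (4499 cells) had another class's marker among their 10 leading genes. Counts were summed per mouse and class (at least 10 cells) and tested with edgeR 4.0.16 (filterByExpr, TMM) over all genes. The code was run on simulated data with far fewer changed genes than these data, which does not test the normalization here. Mice are the replicates, and SE comes from the quasi-likelihood F. Alternatives included DESeq2 1.42.0. Both sums of a mouse in an interaction come from the same animal, which pairs them. Named genes were the 9, all called sterol enzymes, and from each other list the 2 largest rises and falls (all if 4 or fewer passed); some genes the rule names are in the counts but not reported here. Intervals cover counting and mouse error only, and depth limits genes below about 3 counts a mouse. Positions are from GENCODE vM21.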

Additional observations from a re-analysis of the deposited data

Results flagged for a closer look

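There were 4 results that call for a second look. Among 16 groups of 4 mice tested for a mouse apart from the other 3 (Dixon's test, which flags about 1 group in 20 by chance), 2 had one. *Acaca* in control microglia-like cells was 25.01 normalized CPM in control 2, below the other control mice. *Srebf1* in control microglia-like cells was 9.965 normalized CPM in control 3, above the other control mice. The genotype difference of *Acaca* differed between classes in the fits blocked on the mouse, by -1.33 log2 units for T cell-like against microglia-like cells and by -1.63 for CAM-like against microglia-like cells.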

How the results depend on the processing

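Under 23 alternatives in microglia-like cells, 4 of them (left out: cells of highest UMI count, clusters with another class's marker; added: unnamed clusters; thinning to 2000 UMIs) chosen after seeing the data, *Acaca*, *Srebf2*, *Hmgcs1* and *Sqle* were higher and called each time. Some of these alternatives changed little or were alike. A stricter cell filter (500 genes, 10% mitochondrial UMIs) gave 5855 calls among 12729 genes, as in the main fit. Leaving out cluster 5 and resolution 0.4 gave 5706 and 5704 calls, each among 12624 genes. Of 36 called genes named in microglia-like cells, 3 lost the call in some alternative (*Nr1h3*, *Hsd17b7*, *Ebp*), and *Acly* gained one in 3 (0.21 without KO-2, 0.22 without cluster 5 and 0.22 at resolution 0.4). Without a filter on low counts the number of called genes was 139 in place of 39 in CAM-like and 287 in place of 164 in T cell-like cells. The replicate numbers did not pair mice across genotypes (correlations of same-numbered deviations -0.07, -0.02, -0.04 and -0.01), and a replicate block gave 21 calls in CAM-like and 5512 in microglia-like cells. Blocking on the mouse gave 448 in place of 310 calls for T cell-like and 736 in place of 589 for CAM-like against microglia-like cells. Leaving out 1 mouse at a time gave 11 (without control 3) to 69 (without KO-4) calls in CAM-like, 90 (without control 2) to 240 in monocyte-like and 102 (without control 2) to 192 in T cell-like cells, and 202 (without control 4) to 328 and 323 (without control 3) to 562 for the interactions with T cell-like and CAM-like cells.

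Values that were not called changed sign in places, and the cause was not tested. *Fasn* in microglia-like cells was -0.069 with library totals, -0.040 with all cells and -0.043 without the cells of highest UMI count, and -0.082 to 0.21 leaving out 1 mouse. *Scd2* was 0.17 without the clusters with another class's marker and -0.33 to 0.034 leaving out 1 mouse. *Acly* in T cell-like cells was 0.0015 without the filter, 0.048 with a replicate block and -0.23 to 0.16 leaving out 1 mouse, and -0.060 to 0.36 in monocyte-like cells. Leaving out 1 mouse, the T cell-like interaction ran from -0.38 to 0.39 for *Srebf2* and -3.66 to 4.20 for *Sqle*, and the CAM-like one from -0.55 to 0.65 for *Scd2*, -1.12 to 0.36 for *Hmgcs1* and -1.45 to 0.073 for *Sqle*. The difference in the share of cells, in percentage points, was -0.0327 for *Srebf1* and -0.201 for *Fasn* at 1000 UMIs and 2.27 for *Acly* unthinned, and ran from -0.0186 to 0.25 for *Srebf1* and -0.132 to 0.212 for *Fasn* leaving out 1 mouse. Few UMIs outside microglia-like cells limit every value there.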
